A study of Mus musculus with 6 samples.

Results

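Kupffer cells are the resident macrophages of the liver, and the 51 genes described here are a list of genes known for Kupffer cells or for macrophages and other leukocytes in general. They were measured in liver sinusoidal endothelial cells (LSECs), the fenestrated cells that line the liver sinusoids, and are 51 of the 23282 gene rows of each library. The list was drawn up by gene symbol with the genotype comparison of these same libraries already known, so every difference between the genotypes below is a description of the members and no test of them. RNA came from LSECs of *Txnip-/-* mice (3 libraries) and of WT mice (3 libraries). The *Txnip-/-* mice were total knockouts on a C57BL/6J background and the WT mice were C57BL/6J, so macrophages of the *Txnip-/-* mice lacked the gene as well as endothelial cells. The age and diet of these animals, whether the cells were cultured before lysis, and whether each library was 1 animal are not given in the sources used here, so the spread between libraries may be technical. LSECs were selected from a gradient fraction of non-parenchymal cells with magnetic beads against CD146, and Kupffer cells were taken by the study from the cells that did not bind.

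Kupffer cells sit inside the sinusoid, attached to the LSECs, and clear particles, microbes and aged red cells from portal blood. Their identity depends on the nuclear receptor LXRα (*Nr1h3*), on top of PU.1 (*Spi1*), the ETS factor that directs the myeloid lineage as a whole. They also express the transcription factor Spi-C (*Spic*). In the liver, receptors such as *Clec4f* and *Marco* mark the resident cell. Genes such as *Tyrobp*, *Cybb* or *Lyz2* are instead shared by most myeloid cells and genes such as *Ptprc* by all leukocytes. To compare these, the members were split into 9 Kupffer-specific genes, 26 genes of mononuclear phagocytes, 9 pan-leukocyte genes and 7 genes that endothelial, stellate or parenchymal cells are also known to express.

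QuantSeq reads lie at the 3′ end of a transcript, so a count does not grow with transcript length, and levels in CPM (counts scaled to the TMM-adjusted library size) can be set beside each other between genes. The libraries held 9147764 to 10193952 counts, and 3 counts, taken as the floor of detection, equalled 0.286 to 0.335 CPM. Reads of *Txnip* itself numbered 191 to 269 per *Txnip-/-* library and 1901 to 2019 per WT library, which matched the labels. The ribosomal RNA precursor *Rn45s* took about 10% of the counts in WT replicates 1 and 2 and 16.8% to 18.6% in the other 4 libraries, and a chi-square on the counts put WT replicate 3 nearer to the *Txnip-/-* libraries (13.3 to 17.1 per degree of freedom) than to the other WT libraries (37.0 and 40.2). The sum over the members did not follow that split, although single members such as *Hpgd* did. Their levels summed to 2069, 2099 and 2178 CPM for WT and to 1288, 1430 and 1325 CPM for *Txnip-/-* (replicates 1, 2 and 3 of each).

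Macrophage transcripts were present in the LSEC libraries of both genotypes and were lower in *Txnip-/-* LSECs. The Kupffer-specific genes together stood at 210 ± 5.19 CPM in *Txnip-/-* and 483 ± 15.2 CPM in WT LSECs (SD, n = 3 each), and the genes of mononuclear phagocytes at 303 ± 10.7 and 563 ± 31.5 CPM. In bulk RNA, fewer cells of a type and less RNA per cell cannot be told apart. The pan-leukocyte genes summed to 89.9 ± 10.1 CPM in *Txnip-/-* and 166 ± 1.86 CPM in WT LSECs. Single abundant genes made up most of some sums. *Lcp1* held 67.1 and 111 CPM of the pan-leukocyte sums in *Txnip-/-* and WT LSECs. *Marco* (83.2 and 175 CPM) and *Cd5l* (65.7 and 131 CPM) led the Kupffer-specific sums. In these 3 classes the libraries of the genotypes did not overlap. In the broadly expressed class, at 745 ± 85.6 and 903 ± 61.7 CPM, the libraries overlapped, since *Txnip-/-* replicate 2 (839 CPM) exceeded WT replicate 1 (832 CPM).

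**Figure D1:**
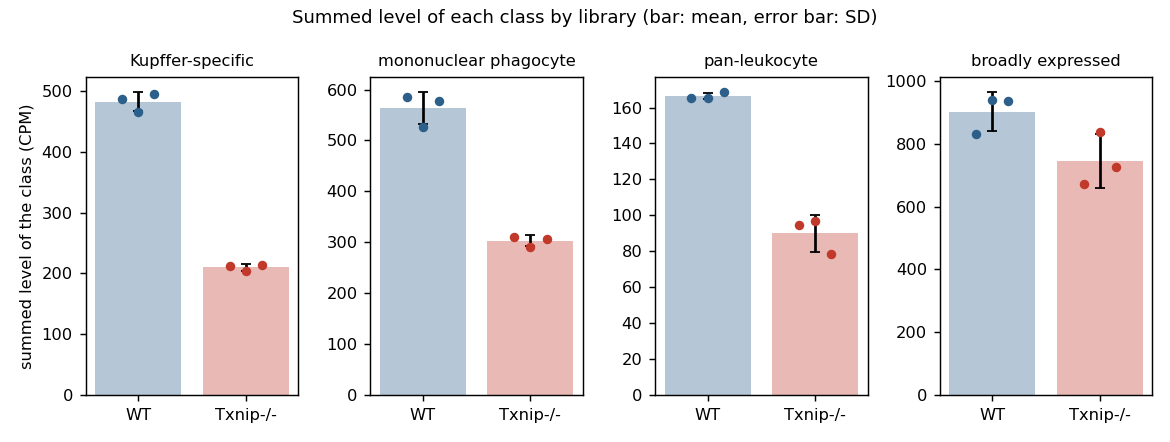
Summed level in CPM (vertical axes, from 0) of the 4 classes of genes in WT and *Txnip-/-* LSEC libraries; points are libraries, bars are means and error bars SD over 3 libraries. The Kupffer-specific sum lies between 204 and 214 CPM in *Txnip-/-* and between 466 and 496 CPM in WT libraries, and only the broadly expressed class overlaps.

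Of the 51 members 43 passed the filter on low counts, which asked for 1.03 CPM or more in at least 3 libraries, and all 43 had a lower fitted level in *Txnip-/-* LSECs, as had 5792 of the 11583 genes tested. Among these 43, 10 reached that level in fewer than 3 *Txnip-/-* libraries and so needed WT libraries to pass the filter, and nothing is read from the share. *Vav1* and *Adgre1*, which are among the calls below, belong to these 10. Calls needed an adjusted p under 0.05 (edgeR) and a fold change above 1.3, or 0.379 on the log2 scale. The study's methods state a corrected p under 0.05 and a log fold change above 1.3, which may be stricter. By the criteria used here, 22 of the 43 were called lower and 0 higher. Of all tested genes, 0.932% were called lower, 0.509% higher and 1.44% in either direction. The *Txnip-/-* libraries all lay below the WT libraries for 34 of the 43 and all above for 0, where 8.94% and 8.43% of all tested genes did so. Since the members were chosen with this comparison known, these counts describe the list and support nothing.

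*Marco*, a scavenger receptor that binds bacteria and particles, was the most abundant Kupffer-specific gene (chromosome 1 of GRCm38, 120474538 to 120505024). It had 804, 742 and 787 counts in *Txnip-/-* and 1751, 1866 and 1666 in WT libraries, or 83.2 ± 7.12 and 175 ± 3.86 CPM (log2 fold change -1.07, standard error 0.10). The groups were far apart and each was tight. *Cd5l* (chromosome 3, 87357881 to 87371073), the secreted apoptosis inhibitor AIM that Kupffer cells release into blood, behaved much alike. Its counts were 608, 627 and 610 in *Txnip-/-* and 1402, 1294 and 1246 in WT libraries (log2 fold change -0.99, standard error 0.10).

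*Vsig4*, the complement receptor CRIg with which Kupffer cells capture C3b-coated particles (chromosome X, 96247203 to 96293438), had 263, 216 and 288 counts in *Txnip-/-* and 813, 709 and 780 in WT libraries (log2 fold change -1.48, standard error 0.15). *Cd163*, the receptor for haemoglobin bound to haptoglobin (chromosome 6, 124304656 to 124330527), had the largest difference of the Kupffer-specific genes. It was read 123, 130 and 122 times in *Txnip-/-* and 618, 561 and 511 times in WT libraries, a log2 fold change of -2.07 (standard error 0.15) or a level 4.19 times lower. Its 3′ end shares 50-base stretches with *Ppip5k1* and *Wars2*, so part of its counts may be reads of those genes. Each of these 4 genes met the call criteria, also with any 1 library left out.

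The other Kupffer-specific genes were rarer and spread more between libraries. *Clec4f*, a lectin that in the mouse liver is restricted to Kupffer cells (chromosome 6, 83644542 to 83656187), had 35, 95 and 74 counts in *Txnip-/-* and 125, 155 and 197 in WT libraries. *Fcna*, ficolin A of the lectin pathway of complement, had 32, 98 and 89 counts against 161, 139 and 142. In both genes *Txnip-/-* replicate 1 was the lowest, and the groups did not overlap (log2 fold changes -1.14 and -0.92, standard errors 0.31 and 0.31).

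*Spic*, the factor that directs the iron-recycling macrophage programme, had 18, 33 and 9 counts in *Txnip-/-* and 65, 99 and 64 in WT libraries (log2 fold change -1.82, standard error 0.46). *Folr2*, a folate receptor of resident macrophages, had 11, 49 and 17 counts in *Txnip-/-* and 49, 66 and 77 in WT libraries. *Txnip-/-* replicate 2 therefore equalled WT replicate 1 in counts and exceeded it in CPM (log2 fold change -1.24, standard error 0.50). *Timd4*, the phosphatidylserine receptor Tim-4 of long-lived Kupffer cells, was not tested. Its 0, 11 and 5 counts in *Txnip-/-* and 12, 2 and 3 counts in WT libraries lay around the floor, so a difference was not detectable at this depth. None of the 5 genes of lower abundance met the call criteria, although *Spic* did so without *Txnip-/-* replicate 2 and without WT replicate 3.

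**Figure D2:**
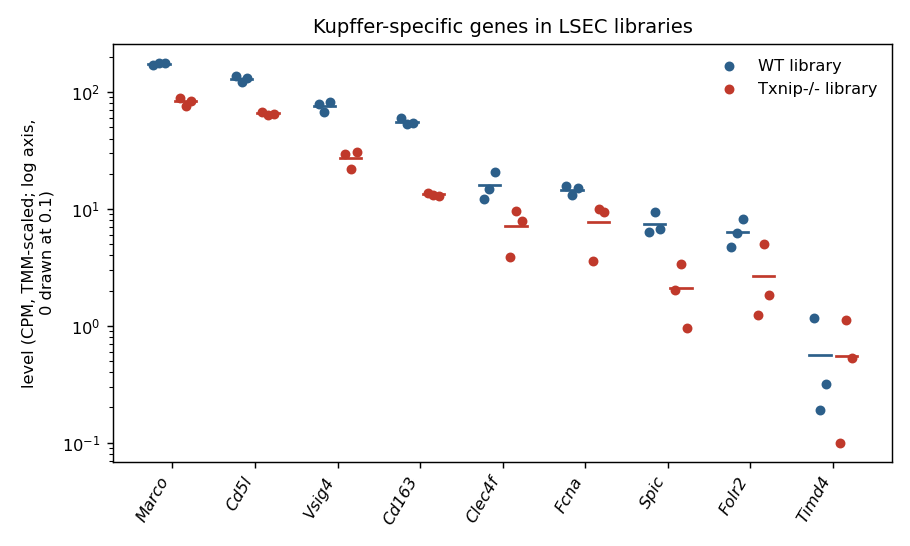
Level in CPM (vertical log axis, a level of 0 drawn at 0.1) of the 9 Kupffer-specific genes; points are libraries and short lines the mean of 3 libraries per genotype. *Marco* stands at 83.2 CPM in *Txnip-/-* and 175 CPM in WT LSECs, *Cd163* at 13.3 and 55.9 CPM, and *Timd4* at 0.55 and 0.56 CPM.

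Counts of 2 genes within the same library do not depend on how the library is scaled, so the abundant genes were also set against *Marco*. *Cd5l* stood at 75.6, 84.5 and 77.5 counts per 100 *Marco* counts in *Txnip-/-* and at 80.1, 69.3 and 74.8 in WT libraries, and the groups overlapped. *Clec4f* (8.85 ± 4.25 in *Txnip-/-* and 9.09 ± 2.44 in WT), *Fcna* (9.50 ± 4.87 and 8.39 ± 0.88) and *Msr1* (17.8, 25.1 and 18.6 against 21.8, 18.6 and 19.8) also overlapped. These 4 genes thus kept about the same proportion to *Marco* in both genotypes, within a wide spread for *Clec4f* and *Fcna*.

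*Cd163*, with the limit on its shared 3′ stretches given above, did not. Its counts per 100 *Marco* counts were 15.3, 17.5 and 15.5 in *Txnip-/-* and 35.3, 30.1 and 30.7 in WT libraries, a ratio of WT to *Txnip-/-* of 1.99. *Vsig4* stood at 32.7, 29.1 and 36.6 in *Txnip-/-* and 46.4, 38.0 and 46.8 in WT libraries, a ratio of 1.33 with the nearest libraries close together. *Ctss* (21.0 ± 2.51 in *Txnip-/-* and 33.6 ± 2.68 in WT) and *Lyz2* (6.52 ± 0.95 and 10.5 ± 1.21) were lower against *Marco* without overlap. *Cd68* went the other way, at 37.8, 51.5 and 49.4 in *Txnip-/-* and 39.9, 35.6 and 35.1 in WT libraries, with overlap. The genes shown were chosen after their levels were seen, so these proportions are a description.

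**Figure D3:**
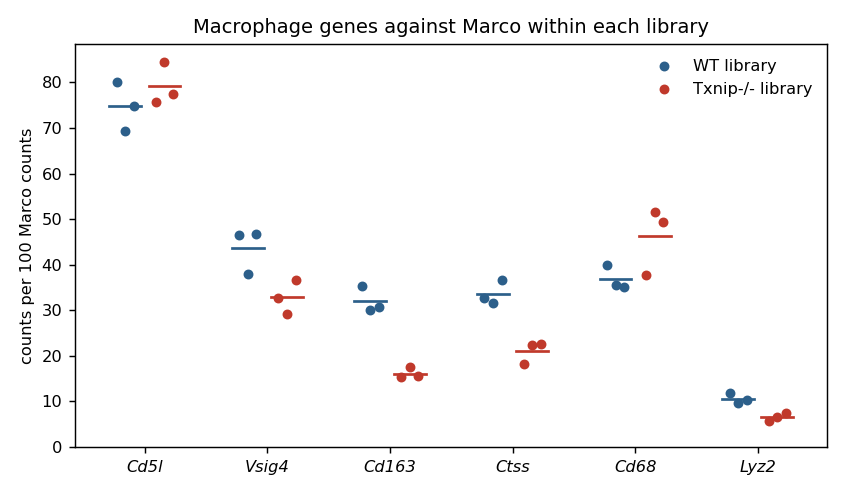
Counts of 6 macrophage genes per 100 counts of *Marco* in the same library (vertical axis, from 0); points are libraries and short lines the mean of 3 libraries per genotype. *Cd5l* overlaps between the genotypes, whereas *Cd163* lies between 15.3 and 17.5 in *Txnip-/-* and between 30.1 and 35.3 in WT libraries.

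The 26 genes of mononuclear phagocytes include lysosomal and antimicrobial genes. *Ctss*, the lysosomal protease cathepsin S that trims the invariant chain of MHC class II (chromosome 3, 95526786 to 95556403), had 146, 166 and 178 counts in *Txnip-/-* and 571, 590 and 611 in WT libraries (log2 fold change -1.75, standard error 0.15). *Lyz2*, lysozyme M, had 45, 48 and 59 counts in *Txnip-/-* and 208, 178 and 170 in WT libraries (log2 fold change -1.76, standard error 0.24). The 3′ end of *Lyz2* shares 50-base stretches with *Lyz1*, so reads can count for both. *Mpeg1*, the pore-forming perforin-2 of phagocytes, had 50, 67 and 69 counts in *Txnip-/-* and 226, 182 and 182 in WT libraries (log2 fold change -1.56, standard error 0.23).

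*Cd68*, the macrosialin of late endosomes, differed less. Its counts were 304, 382 and 389 in *Txnip-/-* and 699, 665 and 584 in WT libraries (log2 fold change -0.75, standard error 0.13). *Slc11a1*, the phagosomal metal transporter Nramp1, had 70, 47 and 64 counts in *Txnip-/-* and 146, 147 and 119 in WT libraries and did not meet the call criteria (log2 fold change -1.07, standard error 0.27). The 3′ end of *Slc11a1* holds stretches that also occur in transcripts of many other genes, and so does that of *Spic*, so part of their counts may be reads of other transcripts. *Wfdc17*, a small secreted whey acidic protein of activated macrophages, had 172, 158 and 154 counts in *Txnip-/-* and 440, 386 and 388 in WT libraries (log2 fold change -1.22, standard error 0.16). All 6 genes of these 2 paragraphs lay below the WT range in every *Txnip-/-* library.

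The NADPH oxidase makes superoxide in the phagosome from a membrane core and cytosolic subunits. *Cybb*, its catalytic membrane subunit gp91phox (chromosome X, 9435252 to 9487771), had 54, 17 and 49 counts in *Txnip-/-* and 201, 166 and 169 in WT libraries, the largest difference of this class (log2 fold change -2.04, standard error 0.34). *Ncf1*, the organiser subunit p47phox, had 23, 4 and 45 counts in *Txnip-/-* and 74, 85 and 95 in WT libraries and did not meet the call criteria (log2 fold change -1.70, standard error 0.54). Stretches of 50 bases at the 3′ end of *Ncf1* also occur in *Zhx3*, so part of its counts may be reads of that gene. *Ncf4*, the p40phox subunit, had 5 counts over the *Txnip-/-* libraries and 13 over the WT libraries, too few to test.

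Receptors that carry no signalling motif of their own pair with the ITAM adaptors *Tyrobp* (DAP12) and *Fcer1g* (the Fc receptor gamma chain). *Tyrobp* had 45, 60 and 53 counts in *Txnip-/-* and 161, 163 and 114 in WT libraries (log2 fold change -1.36, standard error 0.26). *Fcer1g* was nearer between the genotypes, with 496, 443 and 421 counts in *Txnip-/-* and 768, 677 and 739 in WT libraries (log2 fold change -0.58, standard error 0.13). Of their partners, *Fcgr3*, the low-affinity IgG receptor, stood at 3.59 ± 1.62 CPM in *Txnip-/-* and 11.5 ± 1.60 CPM in WT LSECs, and *Trem2*, a lipid-sensing receptor, at 2.64 ± 1.41 and 8.57 ± 1.76 CPM. *Fcgr1* (16 counts over the *Txnip-/-* and 22 over the WT libraries) and *Fcgr4* (12 and 28), the high-affinity and the IgG2-binding receptor, were too rare to test.

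*Lilrb4a* and *Pirb* are inhibitory receptors. *Lilrb4a* (chromosome 10, 51490956 to 51496611) had 75, 132 and 86 counts in *Txnip-/-* and 337, 342 and 230 in WT libraries (log2 fold change -1.53, standard error 0.22). The 3′ end of *Lilrb4a* shares 50-base stretches with *Lilr4b* and with the overlapping *Gm49339*, so part of its counts may be reads of those genes. *Pirb*, a receptor for MHC class I, had 17, 16 and 12 counts in *Txnip-/-* and 48, 70 and 32 in WT libraries and did not meet the call criteria (log2 fold change -1.61, standard error 0.52). Reads of *Letm1* and *Gm47138*, which share 50-base stretches with the 3′ end of *Pirb*, may be part of its counts. *Msr1*, the class A scavenger receptor for modified lipoproteins, had 143, 186 and 146 counts in *Txnip-/-* and 382, 348 and 330 in WT libraries (log2 fold change -1.06, standard error 0.17). *Adgre1*, the F4/80 antigen by which mouse macrophages are usually stained, had 10, 10 and 42 counts in *Txnip-/-* and 96, 90 and 82 in WT libraries. The third *Txnip-/-* library held most of the *Txnip-/-* counts of *Adgre1*, and its log2 fold change of -2.0 (standard error 0.49) ranged from -3.04 to -1.65 over the 6 fits that each omitted 1 library, of which 2 kept the call.

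The factor genes of the myeloid programme differed among themselves. *Irf8* (chromosome 8, 120736358 to 120756694), an interferon regulatory factor that directs monocyte and dendritic cell development, was the most abundant gene of the class and was close in both genotypes. It had 1006, 994 and 977 counts in *Txnip-/-* and 1253, 1112 and 1236 in WT libraries, which overlapped after scaling (log2 fold change -0.17, standard error 0.11). *Spi1* had 36, 39 and 20 counts in *Txnip-/-* and 82, 77 and 81 in WT libraries (log2 fold change -1.23, standard error 0.37). *Nr1h3* had 13, 43 and 27 counts in *Txnip-/-* and 51, 98 and 58 in WT libraries (log2 fold change -1.22, standard error 0.45). Neither *Spi1* nor *Nr1h3* overlapped between the genotypes in CPM, and neither met the call criteria.

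Of the rest of the class, *Aif1* (IBA1, an actin-bundling protein) stood at 1.60 ± 1.03 and 4.08 ± 1.89 CPM and *Fgr*, a Src-family kinase, at 0.62 ± 0.62 and 1.45 ± 0.62 CPM in *Txnip-/-* and WT LSECs, with overlap. *Ms4a7*, a tetraspanning protein of macrophages, was at 0 counts in all 3 *Txnip-/-* libraries and had 2, 9 and 13 in WT libraries. Against a floor of 3 counts over the *Txnip-/-* libraries its level was 7.44-fold lower. The WT counts, widely spread, were taken as exact in that figure, so it is no lower bound. *Cd86*, a costimulatory ligand of T cells, had 11 and 16 counts over the *Txnip-/-* and WT libraries. *Ccr2*, the chemokine receptor of recruited inflammatory monocytes, had 0 counts in all 6 libraries, which allows a level of up to 0.0514 CPM over the pooled libraries.

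Promoters of the members (250 bases before to 50 after the start of transcription, RefSeq, GRCm38.p6) were searched on both strands for 2 motifs. These were the PU.1 core GAGGAAGT and the composite site of PU.1 and an interferon regulatory factor, which is GGAA followed after any 2 bases by GAAA. Promoters were found for 38 of the 51 members. The PU.1 letters were in those of 5 members, namely *Ctss*, *Vav1*, *Cd53*, *Pirb* and *Fcgr4* (13.2% of the 38, against 3.69% of all 27025 genes), and the composite letters in those of 4, namely *Cybb*, *Cd68*, *Folr2* and *Timd4* (10.5%, against 3.16%). The 2 motifs can overlap in their GGAA letters. A match is a description of the letters and says nothing of binding. The members were listed as macrophage and leukocyte genes, and whether a match relates to the lower levels was not tested. *Marco*, *Cd5l*, *Vsig4* and *Cd163*, the called Kupffer-specific genes, had no match. Conversely, *Cd53*, *Pirb* and *Folr2* had a match and were not called, and *Fcgr4* and *Timd4* had a match and were not tested. The promoters of the 4 members with a match that also met the call criteria are shown from 5′ to 3′ along the gene, with the matched letters in capitals.
*Ctss*, chr3:95526536-95526835, plus strand: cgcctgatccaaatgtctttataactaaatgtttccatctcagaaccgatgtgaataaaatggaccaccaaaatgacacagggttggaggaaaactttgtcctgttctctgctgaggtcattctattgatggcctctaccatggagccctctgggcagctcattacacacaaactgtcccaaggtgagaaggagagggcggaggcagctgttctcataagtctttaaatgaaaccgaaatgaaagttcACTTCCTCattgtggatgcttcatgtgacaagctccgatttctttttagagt
*Vav1*, chr17:57278850-57279149, plus strand: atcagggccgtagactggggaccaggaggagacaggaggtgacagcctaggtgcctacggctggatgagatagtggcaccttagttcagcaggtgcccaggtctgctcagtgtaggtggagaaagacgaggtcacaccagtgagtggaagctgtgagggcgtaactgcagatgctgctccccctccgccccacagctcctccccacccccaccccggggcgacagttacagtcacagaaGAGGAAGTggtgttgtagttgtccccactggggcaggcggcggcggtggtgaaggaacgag
*Cybb*, chrX:9469275-9469574, minus strand: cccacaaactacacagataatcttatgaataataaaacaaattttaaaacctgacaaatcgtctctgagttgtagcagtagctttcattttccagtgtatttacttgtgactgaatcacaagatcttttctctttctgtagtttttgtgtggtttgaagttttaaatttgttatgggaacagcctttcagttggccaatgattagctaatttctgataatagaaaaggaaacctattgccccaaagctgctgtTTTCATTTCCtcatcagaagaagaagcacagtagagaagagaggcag
*Cd68*, chr11:69666121-69666420, minus strand: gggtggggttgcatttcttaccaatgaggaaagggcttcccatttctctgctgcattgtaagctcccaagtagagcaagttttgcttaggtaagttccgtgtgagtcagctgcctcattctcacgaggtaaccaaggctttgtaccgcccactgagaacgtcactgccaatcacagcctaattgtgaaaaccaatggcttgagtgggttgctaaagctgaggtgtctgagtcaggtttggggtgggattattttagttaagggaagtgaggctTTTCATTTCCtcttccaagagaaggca
In *Ctss*, *Cybb* and *Cd68* the letters stood on the strand opposite to the gene, and in each of the 4 promoters they began within 25 bases of the RefSeq start. Of these genes *Vav1*, which passed the filter only through WT, and *Cybb* had the largest differences of their classes, whereas *Cd68* had one of the smaller ones.

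Pan-leukocyte genes encode surface glycoproteins and the actin and GTPase machinery of blood cells. *Lcp1*, the actin bundler L-plastin, was the most abundant (chromosome 14, 75131101 to 75230842), with 626, 681 and 580 counts in *Txnip-/-* and 1122, 1130 and 1093 in WT libraries (log2 fold change -0.72, standard error 0.10). *Laptm5*, a lysosomal membrane protein of blood cells, had 106, 114 and 89 counts in *Txnip-/-* and 264, 277 and 210 in WT libraries (log2 fold change -1.17, standard error 0.20). Both lay apart without overlap. *Lcp1* shares 50-base stretches with the pseudogene-like row *Gm6201* and overlaps *Gm15629* on the opposite strand.

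*Vav1*, the exchange factor that activates Rac GTPases in blood cells (chromosome 17, 57279100 to 57328031), had the largest difference of all tested members. It had 4 counts in each *Txnip-/-* library, next to the floor of 3, and 49, 47 and 63 in the WT libraries (log2 fold change -3.59, standard error 0.60). *Vav1* thus passed the filter only through WT. *Rac2*, the GTPase of blood cells, had 29, 13 and 9 counts in *Txnip-/-* and 64, 45 and 78 in WT libraries, without overlap. *Ptprc*, the leukocyte common antigen CD45, had 26, 42 and 9 counts in *Txnip-/-* and 44, 65 and 45 in WT libraries, and the groups lay just apart in CPM (log2 fold change -0.90, standard error 0.52). *Cd53*, a tetraspanin of leukocytes, stood at 3.85 ± 1.84 and 9.42 ± 1.21 CPM.

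*Cd52*, a small glycoprotein mainly of lymphocytes, and *Coro1a*, the actin regulator coronin 1A, overlapped, with levels of 1.64 ± 1.44 and 3.08 ± 0.80 CPM and of 1.35 ± 0.50 and 1.48 ± 1.13 CPM. *Il10ra*, the receptor chain for interleukin 10, had 0 counts in 5 libraries and 4 in WT replicate 3 and was not tested. The smallest difference of the class was that of *Coro1a* (log2 fold change -0.14, standard error 0.80), whose 3′ end overlaps *Bola2* on the opposite strand.

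The broadly expressed members differed least. *Hmox1*, haem oxygenase 1, which Kupffer cells use to degrade haem but which stressed cells of many kinds induce, was the most abundant of all members and overlapped between the genotypes. It had 3169, 4952 and 3482 counts in *Txnip-/-* and 3814, 4543 and 4351 in WT libraries (log2 fold change -0.04, standard error 0.12). *Arhgdib*, a GDP dissociation inhibitor found in blood and endothelial cells, had 1371, 1488 and 1713 counts in *Txnip-/-* and 1849, 1904 and 1771 in WT libraries (log2 fold change -0.17, standard error 0.10). Both genes stood far above the Kupffer-restricted *Clec4f* in level, *Hmox1* at 410 ± 82.3 CPM in *Txnip-/-* and 421 ± 45.6 CPM in WT LSECs.

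*Lgals3*, the glycan-binding galectin 3 (chromosome 14, 47367751 to 47386160), had 707, 852 and 809 counts in *Txnip-/-* and 1453, 1760 and 1693 in WT libraries, without overlap (log2 fold change -0.95, standard error 0.11). *Sirpa*, the receptor for the do-not-eat-me signal CD47, had 408, 390 and 360 counts in *Txnip-/-* and 667, 678 and 524 in WT libraries (log2 fold change -0.58, standard error 0.13). *Cd14*, the lipopolysaccharide coreceptor, had 170, 283 and 269 counts in *Txnip-/-* and 363, 426 and 316 in WT libraries, and did not meet the call criteria (log2 fold change -0.51, standard error 0.18). *Hpgd*, which degrades prostaglandins, had 171, 221 and 129 counts in *Txnip-/-* libraries, but 349, 460 and 149 in WT libraries. WT replicate 3 thus lay within the *Txnip-/-* range (log2 fold change -0.76, standard error 0.28), and without it *Hpgd* met the call criteria (log2 fold change -1.07).

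**Figure D4:**
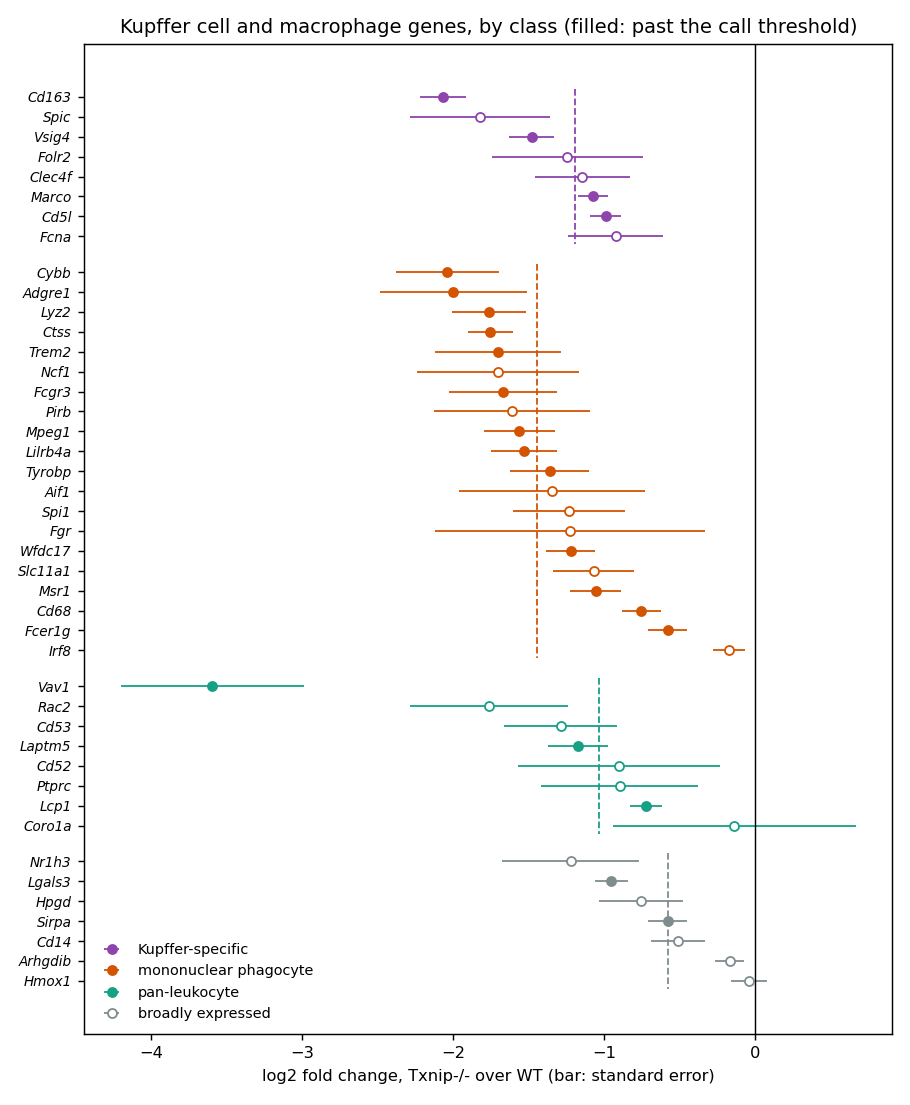
Log2 fold change of *Txnip-/-* over WT LSECs (horizontal axis) with its standard error for the 43 members tested, by class; filled points met the call criteria, open points did not, and dashed lines are class medians. All points lie left of 0, from -3.59 (*Vav1*) to -0.04 (*Hmox1*), and *Cd163* stands lowest of the Kupffer-specific genes.

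Kupffer-specific and general macrophage genes were then set side by side. The median log2 fold change was -1.19 over the 8 Kupffer-specific genes tested (from -2.07 to -0.92), -1.45 over the 20 tested genes of mononuclear phagocytes (from -2.04 to -0.17), -1.04 over the 8 pan-leukocyte genes (from -3.59 to -0.14) and -0.58 over the 7 broadly expressed genes (from -1.22 to -0.04), where the median of all tested genes was -2.75e-05. The ranges of the first 3 classes overlapped. Kupffer-specific genes had the higher median of the first 2 classes with all libraries, and the lower one in 2 of 6 fits, those without *Txnip-/-* replicate 2 and without WT replicate 1.

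Summed levels gave the other order, with the Kupffer-specific sum of *Txnip-/-* LSECs at 43.5% of WT and that of mononuclear phagocytes at 53.8%. Much of this gap lay in *Irf8*. Without it, a choice made after seeing its level, the sum of mononuclear phagocyte genes was 44.3% of WT. Per 100 CPM of mononuclear phagocyte genes, *Irf8* included, the Kupffer-specific genes held 68.0, 70.2 and 69.7 CPM in the *Txnip-/-* libraries and 83.0, 88.3 and 86.0 CPM in the WT libraries. The data thus gave no stable order of the Kupffer-specific and the general macrophage genes.

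Macrophage genes outside the members were taken from a list of 50 genes, of which 43 passed the filter. Of these 12 were called lower (27.9%, against 0.932% of all tested genes) and 0 higher, and 31 did not pass. This list too was drawn up with earlier results of these libraries known, so its count is not independent evidence of a direction. Of the 43 genes 12 reached the filter level in fewer than 3 *Txnip-/-* libraries, and 2 of these were called, *Nckap1l* and *Alox5ap*. Those with the smallest p were the complement C1q genes, *Clec7a* and *Csf1r*. *C1qa*, a chain of the complement C1q that macrophages secrete, had 176, 259 and 200 counts in *Txnip-/-* and 618, 680 and 605 in WT libraries, and fell by 1.48 on the log2 scale (standard error 0.15, adjusted p = 1.04e-05 in edgeR). *C1qb* and *C1qc* fell by 1.48 and 1.49 (adjusted p = 0.000106 and 0.000221 in edgeR), and the 3 genes encode the chains of one protein. *Clec7a*, the β-glucan receptor dectin-1, had 67, 46 and 60 counts in *Txnip-/-* and 262, 234 and 206 in WT libraries, a fall by 1.91 (standard error 0.24, adjusted p = 0.000128 in edgeR). *Csf1r*, the receptor through which macrophages receive their survival factor, had 114, 112 and 171 counts in *Txnip-/-* and 384, 407 and 365 in WT libraries, a fall by 1.44 (standard error 0.19, adjusted p = 0.000262 in edgeR).

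*C3ar1*, *Cd84*, *Plek*, *Itgb2*, *Nckap1l* and *Alox5ap* were also called. The C1q genes, *Clec7a*, *Csf1r* and *C3ar1* met the criteria with any 1 library left out, whereas *Cd84* did so in 5 of the 6 fits, *Plek* and *Itgb2* in 2, and *Nckap1l* and *Alox5ap* in 1. By contrast, 4 of the 5 most abundant genes of the list were not called. *Slc40a1*, the iron exporter ferroportin, stood at 89.3 ± 6.48 CPM in *Txnip-/-* and 121 ± 18.5 CPM in WT LSECs (adjusted p = 0.0797 in edgeR for a log2 fold change of -0.44). The kinase gene *Lyn* (log2 fold change -0.03), the oxidase subunit gene *Cyba* (-0.15) and *Hcls1* (0.10), an actin regulator, had adjusted p-values of 0.964, 0.677 and 0.834 (edgeR).

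**Figure D5:**
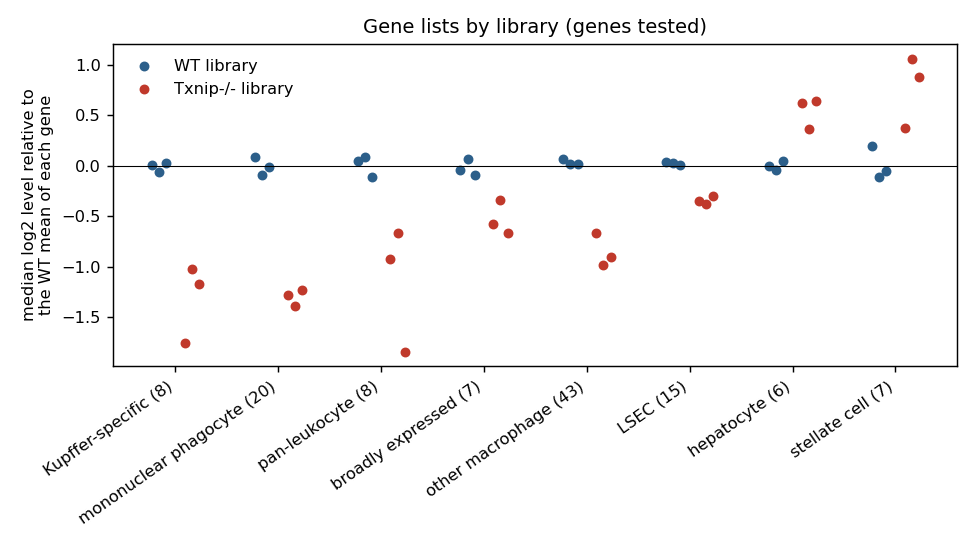
Median over the tested genes of each list (number in brackets) of the log2 level relative to the mean of the 3 WT libraries (vertical axis); points are libraries. The mononuclear phagocyte median lies between -1.39 and -1.23 in the *Txnip-/-* libraries, that of the other macrophage genes between -0.98 and -0.66, and that of the LSEC genes between -0.38 and -0.30.

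Markers of other cells were read beside these values. Genes of T and NK cells were nearly absent, with 9 of 12 at 0 counts in all 6 libraries and a summed level of 0 to 1.43 CPM. Of the 7 B cell genes 5 were at 0, and *Cr2* held most of the counts of that list. Neutrophil genes summed to between 7.38 and 13.2 CPM in *Txnip-/-* and between 3.49 and 5.43 CPM in WT libraries, mainly through *Lcn2*, while *Retnlg*, *Camp* and *Ngp* were at 0. Genes of monocytes and dendritic cells summed to between 20.4 and 30.2 CPM in *Txnip-/-* and between 23.4 and 24.2 CPM in WT libraries, with *Ly6c2*, *Cd209a* and *Siglech* at 0. Single genes of that list moved in opposite directions. *Clec9a*, its most abundant gene, stood at 10.1 ± 3.50 CPM in *Txnip-/-* and 15.2 ± 1.29 CPM in WT LSECs, with overlap. *Plac8* was higher in every *Txnip-/-* library (10.4 ± 1.60 and 4.68 ± 1.52 CPM), and *Ccr9* was level (2.09 and 2.12 CPM). None of the tested genes of these lists was called.

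LSEC genes were far more abundant, at 5482 to 5892 CPM in *Txnip-/-* and 6345 to 8124 CPM in WT libraries. *Lyve1* alone stood at 1475 to 1976 CPM in *Txnip-/-* and at 3482, 3780 and 1520 CPM in WT libraries, with overlap. The 15 LSEC genes had a median log2 fold change of -0.36, from -0.79 (*Lyve1*) to -0.04 (*Cdh5*). Of them 3 were called lower (*Stab1*, *Maf* and *Mrc1*), or 20%, against 0.932% of all tested genes. Bulk counts do not tell which cell type in a library the reads of these 3 genes came from. *Pecam1* (-0.08), *Kdr* (-0.11) and *Tek* (-0.11) were, like *Cdh5*, close between the genotypes. *Mcam*, which encodes the CD146 used to select the cells, had 413, 386 and 365 counts in *Txnip-/-* and 584, 691 and 402 in WT libraries (adjusted p = 0.291 in edgeR for a log2 fold change of -0.41). Hepatocyte genes summed to between 40.3 and 54.5 CPM in *Txnip-/-* and between 39.5 and 41.6 CPM in WT libraries, with 0 of 6 tested genes called. Stellate cell genes summed to between 42.9 and 57.1 CPM in *Txnip-/-* and between 25.0 and 30.2 CPM in WT libraries, with *Dcn* called higher (adjusted p = 0.00497 in edgeR for a log2 fold change of 0.99). The part of these lists in the difference of the macrophage genes was not tested.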

How the data were processed

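RNA of LSECs from 3 *Txnip-/-* and 3 WT libraries was used, grouped by the labels, and none was left out. The deposited files hold whole-number counts per gene symbol: 3′-end reads (QuantSeq, single-end) were mapped by the authors with Bowtie2, and alignments, multiple ones included, were counted with bedtools and not normalized. The submitters' processing notes name mm10; versions, annotation and use of strand are not given in the sources used here. Libraries held 9147764 to 10193952 counts, no molecular identifiers are named, and floors cover counting error only.

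Counts were fitted in R 4.3.3 with edgeR 4.0.16 (filterByExpr, TMM, glmQLFit, glmQLFTest, genotype as the only term, Benjamini-Hochberg over 11583 genes). Calls needed an adjusted p below 0.05 with a change of over 1.3-fold. The F statistic of each gene gave the standard error of its log2 fold change, and levels are CPM with TMM factors. The test was checked on simulated data. The members and lists were chosen with earlier results of these data known. Library counts were given for every Kupffer-specific member and for other members with a mean of at least 10 CPM, the rest by range or with the extremes of their class, and some further members were named after their values were seen. Of the other macrophage genes, the 5 with the smallest p and the 5 most abundant were named. *Ly6g* was not analysed here, and 1 of the other macrophage genes is not reported here. Coordinates follow GENCODE M21 (GRCm38), overlaps were sought in the last 500 bases of coding transcripts, and promoters came from RefSeq. Besides the overlaps given above, *Fcna* (*Fcnaos*), *Folr2* (*Gm10602*), *Arhgdib* (*Pde6h*) and *Lilrb4a* (*Gm40645*) overlap a gene on the opposite strand. Alternatives were DESeq2 1.42.0, limma-trend (limma 3.58.1), other normalization factors, other filters, no fold threshold, a replicate block, leaving out *Rn45s* and leaving out each library. Same-numbered libraries were not paired, since their deviations correlated at -0.03, 0.02 and -0.05.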

Additional observations from a re-analysis of the deposited data

How the results depend on the processing

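Over the alternative settings and the median without *Irf8*, chosen after seeing the data, 125 values of 8 results were computed. The results were the calls of the members and of the other macrophage genes in each direction, and the 4 class medians. A count of calls has no direction to reverse, so only the medians could do so. All medians stayed below 0, and the calls in the higher direction stayed at 0. Of the 125 values, 118 moved by less than the spread between libraries or stayed within 1.5 times. The median log2 fold change of the mononuclear phagocyte genes moved from -1.45 to -1.35 with DESeq2 and with no filter (-1.35), and to -1.53 with no normalization factors. DESeq2 tested 48 members and no filter 50, against 43, and with no normalization factors the median of all tested genes was -0.08. The cause of these shifts was not tested. The members called lower were 22, 24 with DESeq2, 30 with no filter, and 19 with a replicate block, which paired libraries by number only; with that replicate block 9 of the other macrophage genes were called and the class medians were -1.31, -1.51, -1.17 and -0.58. Of the 43 tested members 42 rather than 43 had a lower fitted level with limma-trend and with the replicate block. In the 6 fits that omitted 1 library the members called lower were between 16 (without WT replicate 1) and 25 (without WT replicate 3), with 16 of the 22 called in every such fit. Without WT replicate 1 *Fcer1g*, *Tyrobp*, *Fcgr3*, *Trem2*, *Adgre1* and *Sirpa* lost the call, each fit without another library but WT replicate 3 lost 3 to 5 of these 6, *Spic* gained it without *Txnip-/-* replicate 2, and *Spic*, *Slc11a1* and *Hpgd* gained it without WT replicate 3. Over all genes the calls were 167, 301 with no filter, 108 with the replicate block, and 89 to 301 with a library left out, the highest without WT replicate 3. Over the same fits the other macrophage genes called lower were between 7 (without WT replicate 1) and 11, against 12. The class medians ran from -1.38 to -1.01 (Kupffer-specific), from -1.47 to -1.30 (mononuclear phagocyte), from -1.48 to -0.83 (pan-leukocyte) and from -0.66 to -0.43 (broadly expressed). At this depth 8 of the 51 members had too few counts to be tested.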
